A study of Mus musculus with 4 samples.

Results

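The 9 genes described here encode enzymes that make coenzyme A or return one of its precursors: the pantetheinases Vnn1 and Vnn3, the pantothenate kinase genes Pank1, Pank2, Pank3 and Pank4, and the later enzymes Ppcs, Ppcdc and Coasy. They were taken by symbol from a table of 22138 genes, and all 9 were found in it. The list was selected on the RPKM values of the control siRNA against Hnrnpk siRNA contrast itself, which includes the high values of Vnn1 after Hnrnpk siRNA. The differences of these 9 genes between the groups are therefore given as a description, without a p-value, and nothing is inferred from their number.

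RNA was measured in TT2 cells, a female line of mouse embryonic stem cells (strain C57BL/6xCBA) kept feeder-free in serum with the cytokine LIF. The 2 control libraries came from cells given a control siRNA and the other 2 libraries from cells given an siRNA against Hnrnpk, the gene of the RNA- and DNA-binding protein hnRNP K. Both groups were transfected at 100 nM and again after 24 hours at 50 nM, and RNA was taken about 72 hours after the second dose. All 4 libraries were made from the same line, and a knockdown leaves part of the protein in place. The design text calls the replicates biological without saying whether they were separate cultures, so p-values measure only the spread between these libraries.

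Coenzyme A carries acyl groups in the tricarboxylic acid cycle, in fatty acid synthesis and breakdown, and as acetyl-CoA for the acetylation of histones. Cells build it from pantothenate (vitamin B5), cysteine and ATP. Pantothenate kinases phosphorylate pantothenate in the step that limits the rate, PPCS joins cysteine to the product, PPCDC removes a carboxyl group to give phosphopantetheine, and the bifunctional COASY completes the molecule. Vanins work outside this route, at the cell surface or in secreted form: they cleave pantetheine, a breakdown product of coenzyme A, into pantothenate, which can be used again, and the aminothiol cysteamine.

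The loci of 3 kinases carry a microRNA in an intron on the same strand, and their mature sequences are shown because the host genes are 3 of the 9. Mir107 lies in Pank1, Mir103-2 in Pank2 and Mir103-1 in Pank3, in GENCODE M21. Capitals mark the seed, bases 2 to 8, in the RefSeq mature sequences; Mir103-2 and Mir103-1 give the same miR-103-3p.
mmu-miR-107-3p: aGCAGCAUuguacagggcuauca
mmu-miR-103-3p: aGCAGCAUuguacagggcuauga
Both have the seed GCAGCAU. The microRNAs were not analysed here; the values below are those of the host genes.

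RefSeq promoter windows (GRCm38.p6, 250 bases before to 50 after the start) were found for 7 of the 9 genes; Vnn1 and Coasy were not matched. The table holds 2 windows for Pank1 and 3 for Pank2, and for these 2 genes the window at the GENCODE start is used unless another is named. Windows are shown for Vnn3, the silent neighbour of Vnn1, for Pank1 and Pank3, kinases of one family that differed in direction, and for Ppcs, the gene of the synthesis route with the highest positive change. Each runs 5′ to 3′ on the strand of the gene. Capitals mark any match, on either strand, to 5 short motifs, and matches could overlap. The first is the TATA box motif TATAAA. The second, AGGTCA, is the core of many nuclear receptor sites. The third, AGATAA, is a GATA motif. The fourth is CCCTCC, a C-rich element. The fifth is the CCAAT box.
Vnn3, chr10:23851212-23851511, plus strand: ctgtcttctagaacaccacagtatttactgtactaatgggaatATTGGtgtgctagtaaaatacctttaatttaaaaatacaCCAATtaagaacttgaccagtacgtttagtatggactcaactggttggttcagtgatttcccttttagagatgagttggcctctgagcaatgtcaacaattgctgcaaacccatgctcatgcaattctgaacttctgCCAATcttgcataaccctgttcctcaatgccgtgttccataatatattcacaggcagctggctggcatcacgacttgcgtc
Pank1, chr19:34879406-34879705, minus strand: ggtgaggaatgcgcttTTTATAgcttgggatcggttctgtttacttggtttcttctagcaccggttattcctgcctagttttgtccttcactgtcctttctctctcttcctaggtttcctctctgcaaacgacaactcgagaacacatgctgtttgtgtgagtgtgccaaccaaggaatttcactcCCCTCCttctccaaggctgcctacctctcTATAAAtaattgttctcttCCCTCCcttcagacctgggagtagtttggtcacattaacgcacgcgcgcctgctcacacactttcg
Pank3, chr11:35769245-35769544, plus strand: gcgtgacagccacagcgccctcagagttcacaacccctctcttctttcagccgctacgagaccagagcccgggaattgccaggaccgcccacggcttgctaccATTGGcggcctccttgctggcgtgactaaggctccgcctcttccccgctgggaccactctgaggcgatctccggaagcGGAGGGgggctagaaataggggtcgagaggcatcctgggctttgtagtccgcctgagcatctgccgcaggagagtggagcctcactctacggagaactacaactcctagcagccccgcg
Ppcs, chr4:119422371-119422670, minus strand: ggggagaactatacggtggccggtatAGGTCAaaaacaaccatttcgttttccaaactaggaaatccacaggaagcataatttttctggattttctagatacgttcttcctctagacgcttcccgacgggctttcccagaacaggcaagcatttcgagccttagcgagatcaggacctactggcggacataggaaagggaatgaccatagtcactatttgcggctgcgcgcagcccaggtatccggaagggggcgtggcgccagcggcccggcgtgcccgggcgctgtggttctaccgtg
The Vnn3 window held 4 CpG dinucleotides, below the median of 7 over 32851 windows of this length. The windows of Pank1, Pank3 and Ppcs held 10, 20 and 22, and those of Ppcdc, Pank4 and Pank2 held 11, 16 and 30. The other window of Pank1 held 8 and the other two of Pank2 held 3 and 51. CCCTCC was found in the windows of all 4 kinase genes and of Ppcdc, in the other window of Pank1, and in 39.2% of all windows. TATAAA was found in the Pank1 window and in 13.6% of all windows, AGGTCA in the Ppcs and Ppcdc windows and in 16.3%, and CCAAT in the windows of Vnn3, Pank2, Pank3, Pank4 and Ppcdc, in the other window of Pank1, and in 37.4%. The other two windows of Pank2 held none of the 5 motifs. AGATAA was in 11.2% of all windows and in no window of these genes. A match describes these letters only.

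Values were the deposited RPKM, reads per kilobase of transcript and per size of the library. The smallest steps between low values put the libraries at denominators of 124200000 and 121900000 units for control and 110700000 and 109500000 for Hnrnpk siRNA, where a unit is a read or a read pair. Hnrnpk itself stood at 236 and 226 RPKM in control and at 68.0 and 70.5 RPKM after Hnrnpk siRNA (log2 change -1.73, SE 0.0629, limma adjusted p = 6.59e-08), in the direction of the labels; 50.5% of its transcript is shared with other genes. Log2 changes are differences of mean log2(RPKM + 0.5), Hnrnpk siRNA minus control, and a call means an adjusted p (Benjamini-Hochberg) under 0.05 in a limma fit of the 12486 genes whose mean reached 0.5 RPKM. Pluripotency markers were abundant in every library, for example Pou5f1 at 245 to 301 RPKM and Zfp42 at 480 to 510 RPKM. Of 9 such markers 2 rose and 3 fell, where 32.2% of all genes tested were called higher and 35.0% lower. In bulk RNA, fewer cells that make a transcript and less transcript per cell cannot be told apart.

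Vnn1 went from near silence to the level of the synthesis enzymes. Vnn1 (ENSMUSG00000037440; GENCODE M21 on GRCm38, chromosome 10, 23894688 to 23905343, plus strand) was listed at 0.105 and 0.126 RPKM in control and at 9.08 and 9.47 RPKM after Hnrnpk siRNA. Both Hnrnpk siRNA libraries lay far above both control libraries. The group values were 0.115 ± 0.0145 and 9.27 ± 0.279 RPKM (SD, n = 2 each), a ratio of 80.4, and the log2 change was 3.99 (SE 0.0877). The added 0.5 RPKM compresses the change of a gene this low: with 0.1 RPKM added it was 5.45, and with 1 RPKM added 3.20. At an annotated exonic length of 2416 bases the values correspond to about 31.5 and 37.0 units in control and 2427 and 2505 after Hnrnpk siRNA, so the control level was low but rested on more than single reads.

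Vnn3, the other mouse vanin gene of the cluster, was not detected beyond a single unit. Vnn3 (ENSMUSG00000020010, chromosome 10, 23851462 to 23869843, plus strand) starts 43.2 kb before Vnn1. It was listed at 0.00445 RPKM in control replicate 1, which equals 1 unit at its exonic length of 1811 bases, and at 0 in the other 3 libraries. A limit of 3 units corresponds to 0.0133 RPKM in control replicate 1 and to 0.0151 RPKM in Hnrnpk siRNA replicate 2, for counting error only, so both groups are at or under it and no fold is given. Vnn3 did not pass the filter on low values. The transcripts of Vnn1 and Vnn3 aligned at 67.4% identity over 1349 bases, and their longest identical run was 12 bases. Neither shared a stretch of 100 bases at 95% identity with any other gene.

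**Figure D1:**
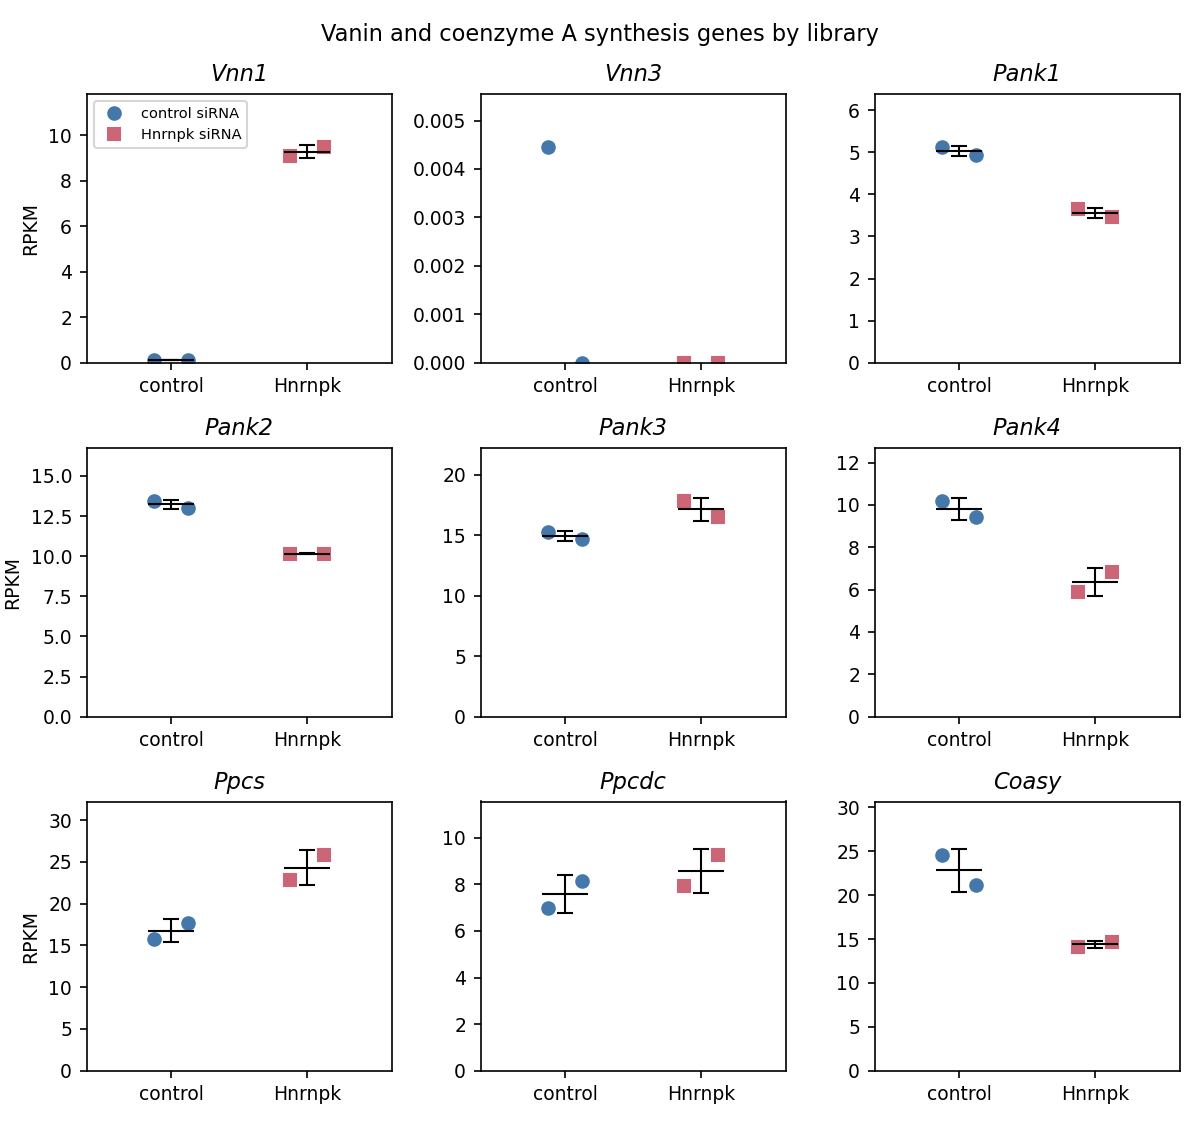
RPKM (vertical axes, each from 0) of the 9 genes in the 2 control siRNA libraries (circles) and the 2 Hnrnpk siRNA libraries (squares); bars give the mean and SD, except for Vnn3, which had 1 unit in 1 library. Vnn1 sits at 9.08 and 9.47 RPKM after Hnrnpk siRNA against 0.105 and 0.126 RPKM in control, while the libraries of the 2 groups interleave only for Ppcdc and Vnn3.

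The genes around the vanins did not share the size of the Vnn1 difference. Within 500 kb of either vanin gene, 10 further genes of the table were found, and 3 of them passed the filter. All 3 were called, as were 67.2% of all genes tested, so nothing is read from this count. Stx7, a syntaxin of late endosomes, stood at 15.2 and 13.7 RPKM in control and 17.9 and 18.9 RPKM after Hnrnpk siRNA and rose (log2 change 0.34, SE 0.0744, limma adjusted p = 0.00276). 1110021L09Rik, which GENCODE M21 names Slc18b1, fell from 2.89 and 3.32 RPKM to 2.24 and 2.40 RPKM (log2 change -0.35, SE 0.0941, limma adjusted p = 0.00781). Moxd1, a monooxygenase, fell from 1.05 and 0.874 RPKM to 0.715 and 0.635 RPKM (log2 change -0.31, SE 0.103, limma adjusted p = 0.0225). The other 7 are trace amine receptor genes, 15.0 to 203 kb from a vanin gene, and none exceeded 0.0645 RPKM in any library. Taar1 and Taar2 were at 0 in both control libraries. After Hnrnpk siRNA they were at 0.0243 and 0.0162 RPKM and at 0.0132 and 0.0645 RPKM. Taar3 and Taar4 overlapped between the groups, and Taar5, Taar6 and Taar9 were at 0 in all libraries. Levels this near 0 were not tested. Without Hnrnpk siRNA replicate 1 the call of Stx7 alone held among these neighbours. The call of Moxd1 was also lost without control replicate 1 (limma adjusted p = 0.0518) and without Hnrnpk siRNA replicate 2 (limma adjusted p = 0.188).

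**Figure D2:**
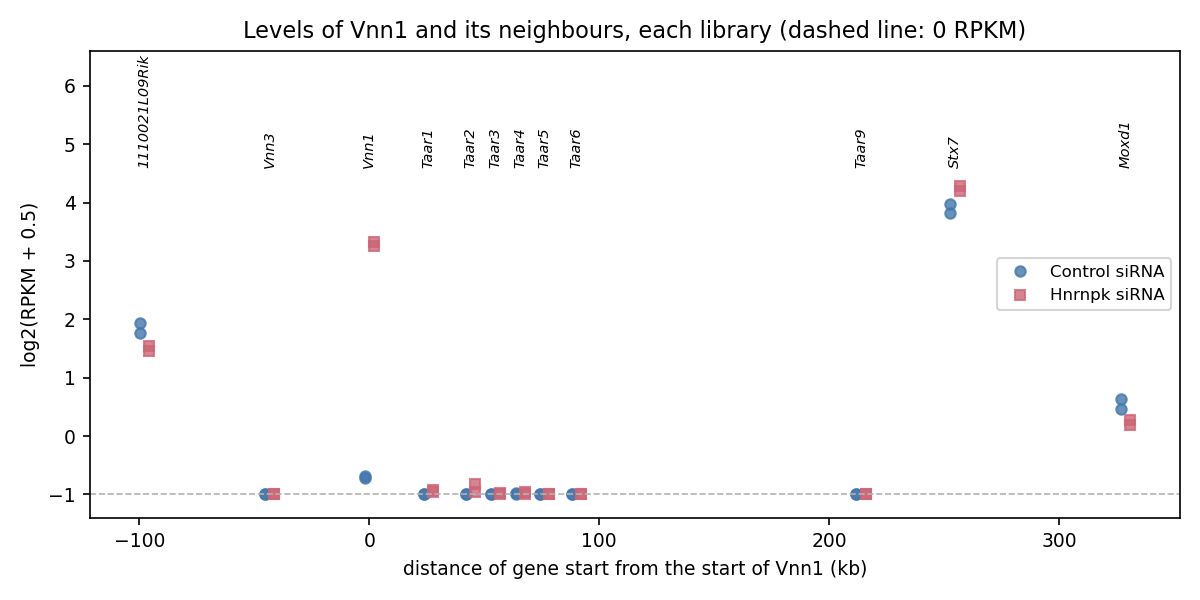
Levels as log2(RPKM + 0.5) (vertical axis) of Vnn1, Vnn3 and the 10 other genes of the table within 500 kb, by the distance of the gene start from the start of Vnn1 in kb (horizontal axis); circles are control siRNA libraries, squares Hnrnpk siRNA libraries. Vnn1 leaves the line of 0 RPKM after Hnrnpk siRNA, while Vnn3 and the trace amine receptor genes stay near it in all 4 libraries.

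Genes were also ranked by how near their levels lay to those of Vnn1 over the 4 libraries. This measure picks genes that are low in control and several RPKM after Hnrnpk siRNA, so their pattern is a description and no separate result. By the largest absolute difference in log2(RPKM + 0.5) in any library, the nearest was Zscan4c (0.19), at 0.129 and 0.0921 RPKM in control and 7.91 and 8.98 RPKM after Hnrnpk siRNA. Gm8300 (0.35), Dub3 (0.54), Gm2016 (0.56) and Arg2 (0.61) followed. Zscan4c shares all of its transcript with its copies, and Gm2016 nearly all of it, so their single values are uncertain. Gm8300 and Arg2 share 23.2% and 27.3% of theirs with other genes. For Vnn3 the same measure separates little, since 5032 genes lay within 0.05 of it and 3324 genes were at 0 in all libraries; the 5 nearest, Fcrl5, Tpte, Tas2r143, Olfr26 and Olfr916, were likewise listed at 0 in 3 of the 4 libraries.

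Markers of other cell states moved in the same libraries as Vnn1. The 8 genes of the 2-cell-like state in the table had a summed level of 0.751 to 0.801 RPKM in control and 42.6 to 50.7 RPKM after Hnrnpk siRNA. Of these, 7 passed the filter, each of them only through the Hnrnpk siRNA libraries, so no count of calls is given for them. Primitive endoderm markers summed to 24.9 to 26.2 and 67.5 to 70.3 RPKM. Some of them passed the filter only through the Hnrnpk siRNA libraries, so no count of calls is given for them either. The largest differences in mean RPKM were those of Col4a1 (6.69 in control, 23.1 after Hnrnpk siRNA) and Gata6 (0.643 and 13.9). Lama1 (9.48 and 9.96) and Amn (3.17 and 3.16) were not called. Trophectoderm markers summed to 38.7 to 43.0 and 90.0 to 94.1 RPKM, with 7 of 7 tested called higher. Over all genes tested, 32.2% were called higher. In mean RPKM the trophectoderm list differed most in Krt18 (17.4 in control, 32.0 after Hnrnpk siRNA), Tead4 (6.37 and 17.3) and Krt8 (12.3 and 22.4). Cdx2 and Elf5 of this list were not tested, and Tfap2c was not found. Cdx2 was higher after Hnrnpk siRNA (mean 0.740 against 0.234 RPKM) and Elf5 lower (0.0656 against 0.107 RPKM). Of markers of liver, kidney and gut epithelium, where Vnn1 is abundant in the animal, 2 of 10 were tested and 1, Lrp2, rose; they summed to 4.14 to 5.03 and 8.69 to 9.09 RPKM, of which Lrp2 made 2.38 to 3.51 and 7.17 to 7.62. Fabp2 was at 0 in all libraries and Alb did not exceed 0.0199 RPKM. Fibroblast markers summed to 8.36 to 9.75 and 4.27 to 4.48 RPKM, with 2 of 2 tested called lower, against 35.0% of all genes tested. The part of these states in the Vnn1 values was not tested.

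The synthesis enzymes rested on far more units than Vnn1 in the control libraries, and they differed much less between the groups. Of the 9 genes, 8 passed the filter and 7 of those were called, 3 higher (Vnn1, Ppcs and Pank3) and 4 lower (Coasy, Pank4, Pank1 and Pank2), where 67.2% of all genes tested were called, 32.2% higher and 35.0% lower. The libraries of the 2 groups did not overlap for 7 of the 8 genes that passed, against 84.7% of the genes tested. The list was selected on this contrast, and Vnn1 passed the filter only through the Hnrnpk siRNA libraries, so nothing is read from these counts. The median log2 change was -0.099 over the 8 and -0.015 over all genes tested. Apart from Vnn1, each of them lay inside the range from the 5th to the 95th percentile of all genes tested, -0.97 to 0.91.

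**Figure D3:**
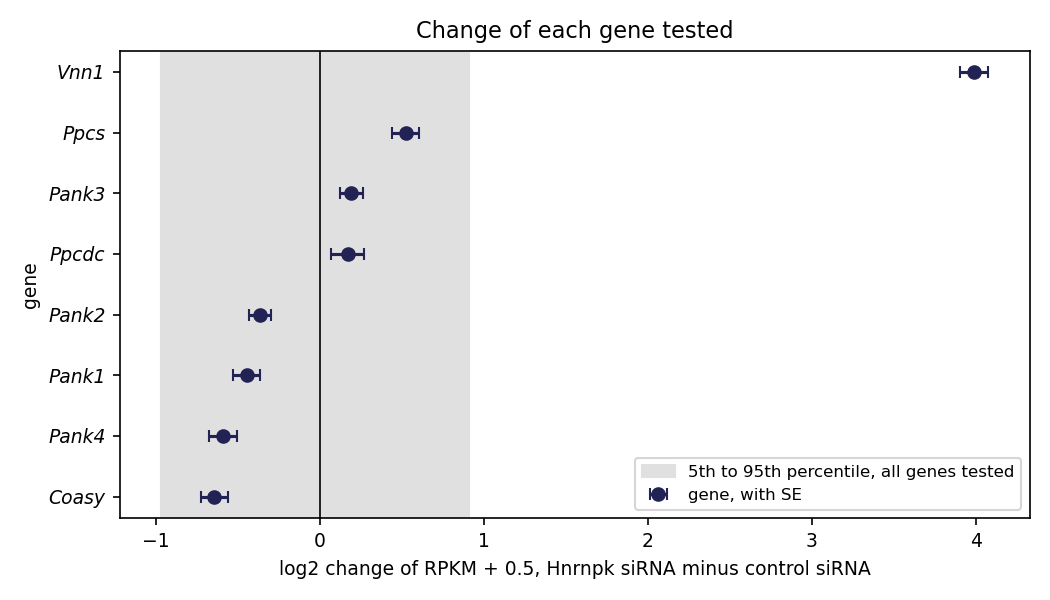
Log2 change of RPKM + 0.5, Hnrnpk siRNA minus control siRNA (horizontal axis), with its SE for the 8 genes that passed the filter; the shaded band spans the 5th to the 95th percentile of all 12486 genes tested. Vnn1 at 3.99 lies outside the band and the other 7 genes lie within it, from -0.64 for Coasy to 0.52 for Ppcs.

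The 4 kinase genes did not change alike. Pank3 was the highest of them in every library: Pank3 (ENSMUSG00000018846, chromosome 11, 35769484 to 35791285, plus strand), a cytosolic kinase, stood at 15.3 and 14.7 RPKM in control and at 17.8 and 16.5 RPKM after Hnrnpk siRNA. The groups did not overlap, but the difference was small in size, a ratio of 1.15. The group values were 15.0 ± 0.428 and 17.1 ± 0.933 RPKM (SD, n = 2 each), a log2 change of 0.19 (SE 0.0703). Its call was lost with GC trends removed, where the log2 change was 0.079, with no filter, and without control replicate 2 or either Hnrnpk siRNA replicate.

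Pank2 and Pank1 were lower after Hnrnpk siRNA in both libraries. Pank2 (ENSMUSG00000037514, chromosome 2, 131262495 to 131299188, plus strand), whose human counterpart is mutated in a neurodegeneration with iron in the brain, went from 13.4 and 13.0 RPKM to 10.2 and 10.1 RPKM. Its group values were 13.2 ± 0.277 and 10.1 ± 0.0289 RPKM (SD, n = 2 each), a log2 change of -0.37 (SE 0.0681). Rnf24, on the opposite strand, covers 22.9% of the exonic bases of Pank2, and no source used here states whether the counting used strand, so reads of the 2 genes may not be told apart there. Rnf24, named here for that overlap, was listed at 2.24 and 2.06 RPKM in control and at 2.99 and 2.73 RPKM after Hnrnpk siRNA, the other direction. Gm14233, on the same strand, also shares 7.31% of the exonic bases of Pank2, which counting by strand would not separate. Pank1 (ENSMUSG00000033610, chromosome 19, 34806940 to 34879455, minus strand), the kinase gene that is known as a target of PPAR alpha and of p53, went from 5.12 and 4.95 RPKM to 3.64 and 3.47 RPKM. Its group values were 5.03 ± 0.121 and 3.56 ± 0.122 RPKM (SD, n = 2 each), a log2 change of -0.45 (SE 0.0803).

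Pank4 showed the most negative log2 change of the family. Pank4 (ENSMUSG00000029056, chromosome 4, 154964123 to 154980938, plus strand) encodes a protein that lacks kinase activity and carries a phosphatase domain. It stood at 10.2 and 9.44 RPKM in control and at 5.88 and 6.82 RPKM after Hnrnpk siRNA, with no overlap. The group values were 9.80 ± 0.517 and 6.35 ± 0.661 RPKM (SD, n = 2 each), a log2 change of -0.59 (SE 0.0878).

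The make-up of the kinase transcripts therefore differed, and their sum was somewhat lower after Hnrnpk siRNA. Pank1, Pank2 and Pank3, the active kinases, together had 33.8 and 32.6 RPKM in control and 31.6 and 30.1 RPKM after Hnrnpk siRNA, a ratio of 0.929. Pank3 took 45.2% and 44.9% of that sum in control and 56.3% and 54.8% after Hnrnpk siRNA. The share of Pank2 was 39.7% and 39.9% against 32.2% and 33.7%, and that of Pank1 was 15.1% and 15.2% against 11.5% in both libraries. RPKM are per length, so these shares compare transcripts, not reads. The transcripts of Pank1, Pank2 and Pank3 aligned pairwise at 72.6% to 74.3% identity with no identical run over 28 bases, and Pank4 gave no alignment with any of them.

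**Figure D4:**
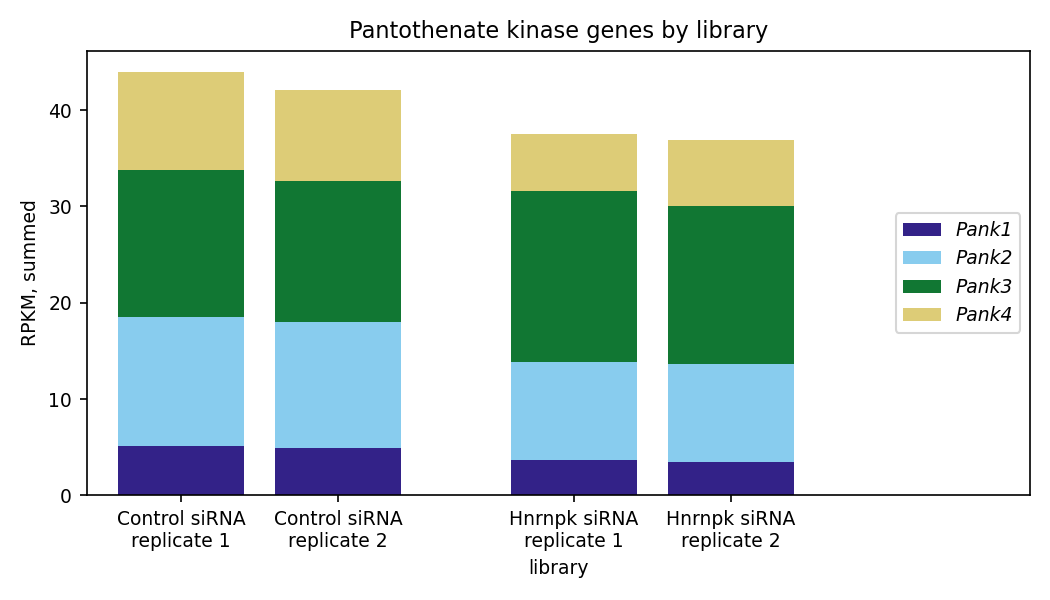
Summed RPKM (vertical axis) of Pank1, Pank2, Pank3 and Pank4 in each of the 4 libraries, stacked by gene. The Pank3 segment grows from 14.7 to 15.3 RPKM in control to 16.5 to 17.8 RPKM after Hnrnpk siRNA while the other 3 segments shrink, and the whole goes from 44.0 and 42.1 to 37.5 and 36.9 RPKM.

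The 3 later enzymes went different ways. Ppcs (ENSMUSG00000028636, chromosome 4, 119418530 to 119422420, minus strand), which joins cysteine to phosphopantothenate, stood at 15.8 and 17.7 RPKM in control and at 22.8 and 25.8 RPKM after Hnrnpk siRNA. Both Hnrnpk siRNA libraries were above both control libraries, with group values of 16.8 ± 1.34 and 24.3 ± 2.07 RPKM (SD, n = 2 each) and a log2 change of 0.52 (SE 0.0825). Ppcdc (ENSMUSG00000063849, chromosome 9, 57385095 to 57440124, minus strand), the decarboxylase, stood at 6.99 and 8.16 RPKM in control and at 7.91 and 9.25 RPKM after Hnrnpk siRNA. These libraries overlapped: the group values were 7.58 ± 0.825 and 8.58 ± 0.945 RPKM (SD, n = 2 each), and the log2 change of 0.17 (SE 0.0988) was not called. The Ppcdc change was 0.064 without control replicate 1 and 0.062 without Hnrnpk siRNA replicate 2, and 0.27 without control replicate 2, where it was called, or without Hnrnpk siRNA replicate 1, where it was not.

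Coasy and Pank4 had the most negative log2 changes of the 8 genes, and their order was not stable. Coasy (ENSMUSG00000001755, chromosome 11, 101082565 to 101086619, plus strand), the enzyme of the last steps, stood at 24.5 and 21.1 RPKM in control and at 14.1 and 14.7 RPKM after Hnrnpk siRNA, with no overlap. The group values were 22.8 ± 2.42 and 14.4 ± 0.450 RPKM (SD, n = 2 each), a log2 change of -0.64 (SE 0.0813). With GC trends removed it was -0.50, as was that of Pank4, and without Hnrnpk siRNA replicate 2 it was -0.68 against -0.69 for Pank4. Within each library, Coasy stood at 1.55 and 1.19 times the RPKM of Ppcs in control and at 0.616 and 0.570 times after Hnrnpk siRNA.

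The order of the levels along the route was thus not the same in the 2 groups. In control it ran Coasy, Ppcs, Pank3, Pank2, Pank4, Ppcdc, Pank1, Vnn1 and Vnn3, and the 2 libraries of each gene above Vnn3 did not overlap those of the next gene. After Hnrnpk siRNA it ran Ppcs, Pank3, Coasy, Pank2, Vnn1, Ppcdc, Pank4, Pank1 and Vnn3. There Vnn1 (9.08 and 9.47 RPKM) and Ppcdc (7.91 and 9.25 RPKM) overlapped and could not be ordered. In control 36.1% of the genes in the table had a lower mean than Vnn1, against 63.6% for Pank1 and 84.3% for Coasy.

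Around this route, 8 lists of related genes held 100 genes of the table, of which 78 passed the filter. Of these, 25 rose and 33 fell, 74.4% in all against 67.2% of all genes tested (32.2% higher and 35.0% lower). The counts of each list below are to be set beside these shares. The lists were chosen with earlier results of these data known. Of the 78 genes, 10 were called with a change of 2-fold or more, as were 1063 of all genes tested (8.51%). Aldh1l2, Acsbg2, Acot3 and Rxrg passed the filter only through the control libraries and Them5 only through the Hnrnpk siRNA libraries. Their calls carry this selection. They are included in the counts here and in their lists, and nothing is read from their calls.

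Supply and breakdown of coenzyme A had 2 genes higher and 4 lower of 8 tested, with a median log2 change of -0.28. Slc5a6, the sodium-dependent transporter that takes up pantothenate and biotin, rose from 6.23 and 7.09 RPKM to 11.3 and 11.9 RPKM (log2 change 0.76, SE 0.0823, limma adjusted p = 3.24e-05). The transcript of Slc5a6 shares 62.5% of its bases with other genes, Atraid among them, so its value is uncertain. The ectonucleotidase Enpp3 fell (log2 change -0.82), as did Nudt19 (-0.69) and Nudt7 (-0.58), hydrolases that split coenzyme A in peroxisomes, and Dcakd (-0.37), which carries a dephospho-CoA kinase domain. The highest limma adjusted p of these 4 was 0.000680. Of the transcript of Nudt19, 40.8% is shared with another gene, B230322F03Rik, so its value is uncertain. The mitochondrial coenzyme A carrier Slc25a42 rose (0.29, limma adjusted p = 0.0158), but its call was not stable. It was lost with no filter, where 5 genes of this list were called of 9 tested.

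Proteins that carry the phosphopantetheine arm, and the enzymes that work with it, had 2 genes higher and 4 lower of 8 tested, with a median of -0.28. Fasn, the cytosolic fatty acid synthase, fell from 231 and 235 RPKM to 105 and 101 RPKM (log2 change -1.18, SE 0.0626, limma adjusted p = 5.35e-07), and Mcat, its mitochondrial malonyl transferase counterpart, from 24.5 and 26.2 to 9.63 and 11.9 RPKM (log2 change -1.21). Aldh1l2 fell by 1.10 and Aasdh fell by 0.55 on the log2 scale. The mitochondrial acyl carrier protein Ndufab1 rose (0.62). Of the transcripts of Ndufab1 and Aldh1l2, 13.5% and 17.5% are shared with other genes. Aasdhppt, which attaches the arm, stood at 30.6 and 34.7 RPKM in control and 32.1 and 32.5 RPKM after Hnrnpk siRNA and was not called.

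Cysteamine, the second product of vanins, is oxidised by the enzyme of Ado. Ado stood at 12.8 and 11.6 RPKM in control and at 11.9 and 11.3 RPKM after Hnrnpk siRNA, overlapping and not called (log2 change -0.067, SE 0.0754, limma adjusted p = 0.455). In the list of cysteamine and taurine handling 2 genes rose and 2 fell of 5 tested, with a median of -0.067. Cdo1, the cysteine dioxygenase, had a log2 change of 0.55 and Got1 one of 0.27, both rises, while Csad, which makes hypotaurine, fell by 0.46 on the log2 scale and the taurine transporter Slc6a6 fell from 49.5 and 44.1 to 21.4 and 20.9 RPKM. Among relatives of vanins in the nitrilase superfamily, 2 rose and 1 fell of 4 tested: Nadsyn1 (0.64) and the biotinidase Btd (0.25) were higher and Nit2 (-0.39) lower, with a median of 0.059. The call of Btd was lost in 4 of 12 alternatives.

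The list of acyl-CoA synthetases had 3 genes higher and 12 lower of 17 tested. Most of them join fatty acids or acetate to coenzyme A, but Acly and the succinate-CoA ligase genes Suclg1, Suclg2 and Sucla2 are included. The median log2 change of the list was -0.38, against -0.015 over all genes tested. Of all genes tested, 32.2% were called higher and 35.0% lower. The calls with the lowest p were Acsl5 (-0.99), Slc27a2 (-0.98), Acsf3 (-0.73), Acly (-0.59), the ATP citrate lyase that makes cytosolic acetyl-CoA, and Acss2 (-1.10), the acetyl-CoA synthetase. Acly went from 211 and 201 RPKM to 136 and 136 RPKM. Acyl-CoA thioesterases, which release coenzyme A again, had 3 higher and 5 lower of 12 tested, with a median of 0.088. Acot1 (-1.19), Acot3 (-0.72), Acot7 (-0.65) and Acot11 (-0.65) fell and Them5 (1.05) rose. Acot1 shares 56.1% of its transcript with other genes, and its control libraries stood apart at 56.8 and 36.6 RPKM. Acot11 and Acot3 share 22.4% and 21.6% of theirs.

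**Figure D5:**
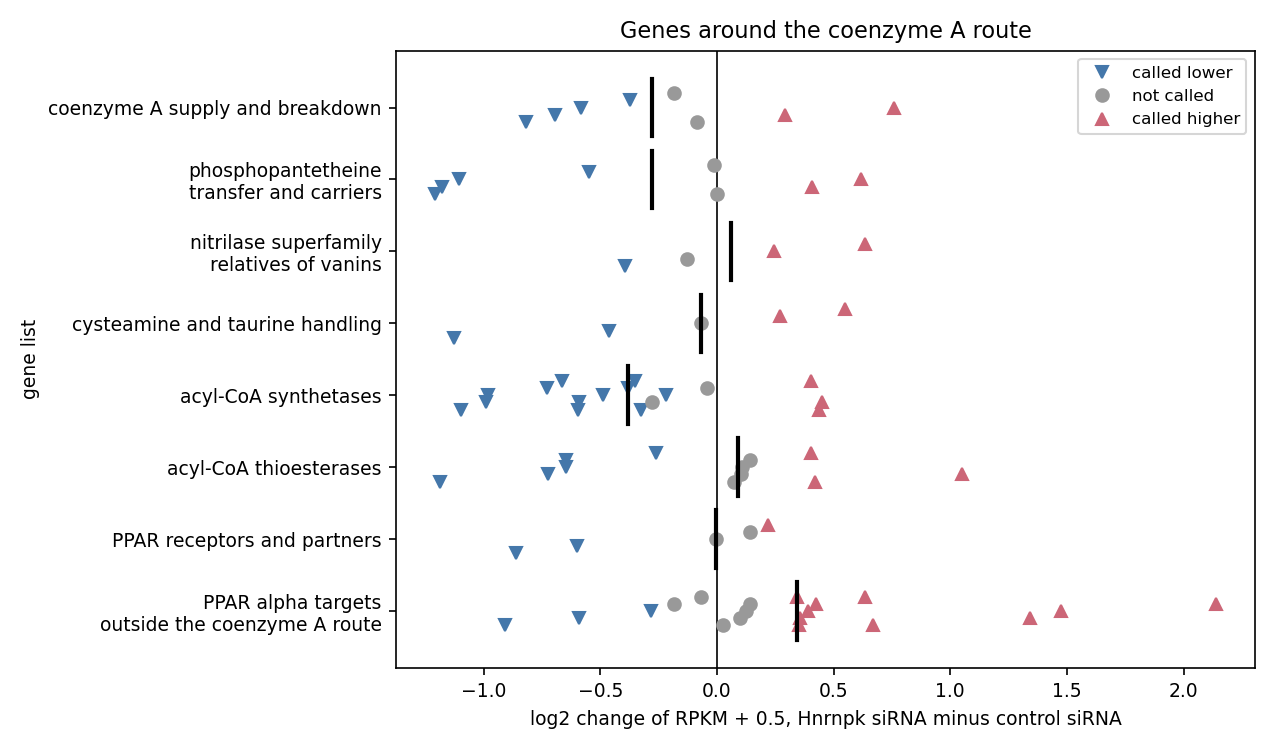
Log2 change of RPKM + 0.5, Hnrnpk siRNA minus control siRNA (horizontal axis), of the genes tested in 8 lists around the coenzyme A route (vertical axis); triangles mark genes called higher or lower, circles genes not called, and black bars the list medians. The acyl-CoA synthetases have the lowest median, -0.38, and the targets of PPAR alpha the highest, 0.34.

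PPAR alpha, a nuclear receptor of fatty acids, is known to raise Vnn1 and Pank1 in liver. Ppara was at 0.0987 and 0.0868 RPKM in control and at 0.137 and 0.0957 RPKM after Hnrnpk siRNA and did not pass the filter. Of its receptor family and partners, 1 gene rose and 2 fell of 5 tested, with a median of -0.0033: Ppard (0.22) was higher, and the coactivator Ppargc1b (-0.86) and Rxrg (-0.60) lower. The call of Ppard was lost without control replicate 2 and without Hnrnpk siRNA replicate 1, and without control replicate 2 only 1 gene of this list was called, of 4 tested, since Rxrg then missed the filter.

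Other known targets of PPAR alpha had 10 genes higher and 3 lower of 19 tested. Over all genes tested, 32.2% were called higher and 35.0% lower. The median log2 change was 0.34 in this list and -0.015 over all genes tested. Fabp3, a fatty acid binding protein, rose from 167 and 124 RPKM to 613 and 656 RPKM (log2 change 2.14, SE 0.121, limma adjusted p = 7.43e-07); 48.8% of its transcript is shared with its pseudogene. Slc25a20, the mitochondrial carnitine carrier, rose from 15.0 and 15.2 to 37.3 and 40.9 RPKM (log2 change 1.34), and Cpt1a, the carnitine transferase before it, from 14.6 and 10.8 to 36.2 and 35.4 RPKM (log2 change 1.47). Acaa2 rose (0.67), while Cpt2, the carnitine transferase behind the carrier, fell from 21.3 and 17.9 to 10.5 and 9.89 RPKM (log2 change -0.91). The highest limma adjusted p of these 5 was 1.62e-05. Other targets were nearly silent: Cyp4a10 and Cyp4a14 did not exceed 0.00695 RPKM, and Fabp1 was at 0 in all libraries. A part of PPAR alpha in these values or in those of Vnn1 was not tested.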

How the data were processed

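RNA from 4 libraries was analysed, 2 after control siRNA and 2 after Hnrnpk siRNA, grouped by their titles. The deposited table holds RPKM values computed by the authors, 1 column per library, per the file headers. BWA, SAMtools and the build mm9 are named in the submitters' processing notes, without roles; how reads were counted, with or without strand and with multiple matches, is not stated in the sources used here. One label field names ribosomal RNA depletion and another poly(A) selection. Whole reads were not recovered from all values, so no count model was used.

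Values were taken as log2(RPKM + 0.5), genes with a mean under 0.5 RPKM were left out, and limma 3.58.1 in R 4.3.3 (mean-variance trend, moderated two-sided test, Benjamini-Hochberg over 12486 genes) compared the groups; it was tested on simulated data. With 2 libraries a group an exact permutation test of 1 gene cannot give a p below 0.333. Denominators came from the commonest smallest step at the annotated exonic length. Gene positions and lengths are from GENCODE M21 on GRCm38, matched by identifier (92.8% of the table), not from mm9. Transcripts (the longest) were compared by BLAST 2.17.0 (95% identity over 100 bases; pairs of members without that limit). Named were the 9 genes, Hnrnpk, up to 5 called genes of lowest p per list, Ppara, Slc5a6 and Ado. Rnf24 was added after its values were seen, and marker and target examples were chosen to show ranges. Slc25a42, Aasdhppt, Acsbg2 and the trace amine receptor genes were named outside this rule. Their values are not among those counted for named genes over the alternatives. The members and lists were chosen with earlier results of these data known. The alternatives were 0.1 or 1 RPKM added before the log, a filter at 1 RPKM or none, median-ratio or quantile scaling, a replicate block, each library left out, and GC trends removed, the last chosen after seeing the data.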

Additional observations from a re-analysis of the deposited data

How the results depend on the processing

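Over 12 alternatives, the log2 change of Vnn1 lay between 3.20 and 5.45, of Ppcs between 0.44 and 0.61, of Pank4 between -0.69 and -0.49, and of Coasy between -0.75 and -0.50. No named gene that was called changed sign, and 463 of 473 values of named genes outside the 9 kept their call. The number of the 9 genes called was 6 or 7. Leaving out 1 library at a time (the lone library of its group is then assumed to vary like the others), the genes called over all genes tested numbered 6792 to 8516, in the PPAR receptor list 1 to 3, and among the vanin neighbours 1 to 3. The replicate numbers did not pair the libraries by any label (correlation of their deviations 0.027); with the replicate number as a block, 8622 genes and 7 of the 9 were called. Vnn3 was left out by the filter and entered only the fit without one, and a Vnn1 level of about 31.5 units in control limits the precision of its ratio.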
